A study of Mus musculus with 8 samples.

Results

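The genes described here are 9 of the 18656 genes counted in mouse hearts. They act in sympathetic and parasympathetic signalling at the cell surface or in the making and breakdown of cAMP. They are the receptor genes Adrb1, Adra1a, Adra1b and Chrm2, the receptor kinase genes Grk2 (also named Adrbk1) and Grk5, the adenylyl cyclase genes Adcy5 and Adcy6, and the phosphodiesterase gene Pde4d. They were chosen by name and matched by gene identifier, and all 9 passed the filter on low counts. RNA came from hearts of 16-day-old C57BL/6 mice of genotypes that lack the orphan nuclear receptor ERRα, its relative ERRγ, both or neither. These are transcription factors of energy metabolism in the heart. There were 8 libraries, 2 per genotype, each from 2 to 3 pooled hearts. The control hearts of the study, αHetγWT, were themselves heterozygous for a germline deletion of ERRα (gene Esrra). αHetγKO hearts were heterozygous for ERRα and lacked ERRγ (gene Esrrg) in cardiac myocytes only, through a floxed gene and Cre under the Myh6 promoter, so other cells of the heart kept ERRγ. αKOγWT hearts lacked ERRα in all cells, and αKOγKO hearts lacked ERRα in all cells and ERRγ in cardiac myocytes. No group carried 2 intact copies of ERRα. The study describes fatal dilated cardiomyopathy with heart failure in αKOγKO mice only, and normal heart function in the other genotypes. At 16 days the sampled αKOγKO mice were past the median life span it gives for them. In every comparison with αKOγKO hearts and in the interaction, loss of both receptors and heart failure therefore cannot be told apart. Whether γWT hearts carried Cre is not given in the sources used here.

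Noradrenaline from sympathetic nerves binds beta-adrenergic receptors on the myocyte, which act through the stimulatory G protein on adenylyl cyclase, and the cAMP made there activates protein kinase A (PKA) and raises the rate and force of the beat. Alpha1-adrenergic receptors couple to phospholipase C instead, and the muscarinic receptor of the heart, which binds acetylcholine from the vagus nerve, couples to the inhibitory G protein and lowers cAMP. Receptor kinases phosphorylate occupied receptors so that arrestins uncouple them, and phosphodiesterases break cAMP down near its targets.

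The 250 bases before a transcription start were available for 6 of the members, from the RefSeq promoter table on GRCm38.p6, and are shown for the member with the largest change of level, Adra1b, and for the beta1 receptor gene Adrb1, which did not pass the test. The Adra1b window shown is chr11:43836490-43836739 on the minus strand. It lies before an internal start of the gene, within its span on chromosome 11 from 43774605 to 43901250 and outside its exons. Another Adra1b window, chr11:43901238-43901487 on the minus strand, lies at the upstream end of that span. It was searched but is not shown. The Adrb1 window is chr19:56721867-56722116 on the plus strand, directly before the gene (chromosome 19 from 56722117 to 56725150). Capitals mark TGACG, the core of the site bound by CREB, the transcription factor activated by PKA.
Adra1b: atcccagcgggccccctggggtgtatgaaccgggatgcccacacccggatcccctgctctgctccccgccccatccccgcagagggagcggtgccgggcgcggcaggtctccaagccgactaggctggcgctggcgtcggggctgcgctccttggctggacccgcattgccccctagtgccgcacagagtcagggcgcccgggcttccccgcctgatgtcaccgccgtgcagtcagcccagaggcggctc
Adrb1: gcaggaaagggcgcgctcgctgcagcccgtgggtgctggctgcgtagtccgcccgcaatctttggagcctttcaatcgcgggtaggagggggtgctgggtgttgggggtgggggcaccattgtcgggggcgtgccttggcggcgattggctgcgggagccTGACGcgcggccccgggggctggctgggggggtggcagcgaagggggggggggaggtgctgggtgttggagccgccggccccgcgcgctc
In the 7 member windows searched on both strands, TGACG occurred once, in Adrb1, and in 17.8% of 32851 windows of all genes. The full CREB site TGACGTCA occurred in none of the member windows and in 1.55% of all windows. The letters TNAAGGTCA, the extended site of the ERR family, and the shorter AGGTCA, which they contain, were in none of the member windows and in 1.14% and 14.0% of all windows. These matches describe the letters in the windows only. The windows of Adra1a, Adcy6 and Grk2 were not used here.

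The libraries held 28.2 M to 36.8 M unique reads. Esrra had 2962 to 3483 reads in the 4 αHet libraries and 84 to 136 in the 4 αKO libraries, which checks the ERRα labels, whereas the reads over the whole Esrrg gene (1055 to 1486 in 6 libraries, 3012 and 3461 for αKOγKO) do not show a deleted exon and do not check the γKO labels. The αKOγKO replicates stood apart from each other: Fos had 484 and 15676 reads in replicates 1 and 2, and Fosb 115 and 12840. The summed RPKM of 7 atrial markers was 4290 to 7160 in the other 6 libraries and 25400 and 24800 for αKOγKO, that of 4 ventricular markers 14900 to 17500 against 9070 and 10700, of 8 endothelial markers 497 to 584 against 415 and 403, of 7 fibroblast markers 808 to 1000 against 1900 and 1280, and of 6 macrophage markers 60.4 to 85.5 against 134 and 72.9. Of the atrial sum, Nppa alone made up 22200 and 20400 RPKM for αKOγKO, and the other 6 atrial markers together were at 1990 to 2920 in the other 6 libraries against 3220 and 4450. None of the markers in these 5 lists was at 0 in any library. The sum of 5 adipocyte markers was 173 and 77.4 in αHetγWT replicates 1 and 2, and 20.8 and 73.6 in αKOγWT. That of 4 erythroid markers was 369 and 1190 in αKOγWT. The αKOγKO sums, 112 and 76.4 for adipocyte and 474 and 459 for erythroid markers, lay within these ranges. The part of cell composition in the differences reported here was not tested, and in whole hearts fewer cells of a type and less RNA per cell cannot be told apart.

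In αKOγKO hearts the transcript of the alpha1B receptor fell to about 0.332 of its level in αHetγWT hearts, the receptor kinase transcript Grk5 rose 2.05-fold, and the phosphodiesterase transcript Pde4d fell to 0.602 of its control level. Adcy5 rose 1.39-fold, Chrm2 fell to 0.711 and Grk2 to 0.851, the latter pair with calls that several alternatives lost. Adrb1, Adra1a and Adcy6 did not pass the test. Thus 6 of the 9 members passed, 2 higher and 4 lower (edgeR quasi-likelihood test on read counts, Benjamini-Hochberg adjusted p below 0.05 over 15076 genes), where 42.2% of all tested genes passed in this comparison, 20.7% higher and 21.5% lower. In RPKM both αKOγKO libraries lay beyond all 6 others for 3 members, Adra1b and Pde4d lower and Grk5 higher, where this held for 53.0% of all tested genes (34.8% higher, 18.3% lower). The p-values measure the spread between pooled libraries. Without αKOγKO replicate 1, 5 members passed against 38.6% of all genes in that fit, and without αKOγKO replicate 2, 8 did against 42.9%. The number fell to 3 (Adra1b, Grk5 and Pde4d) without αHetγWT replicate 1, where 27.2% of all genes passed.

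**Figure D1:**
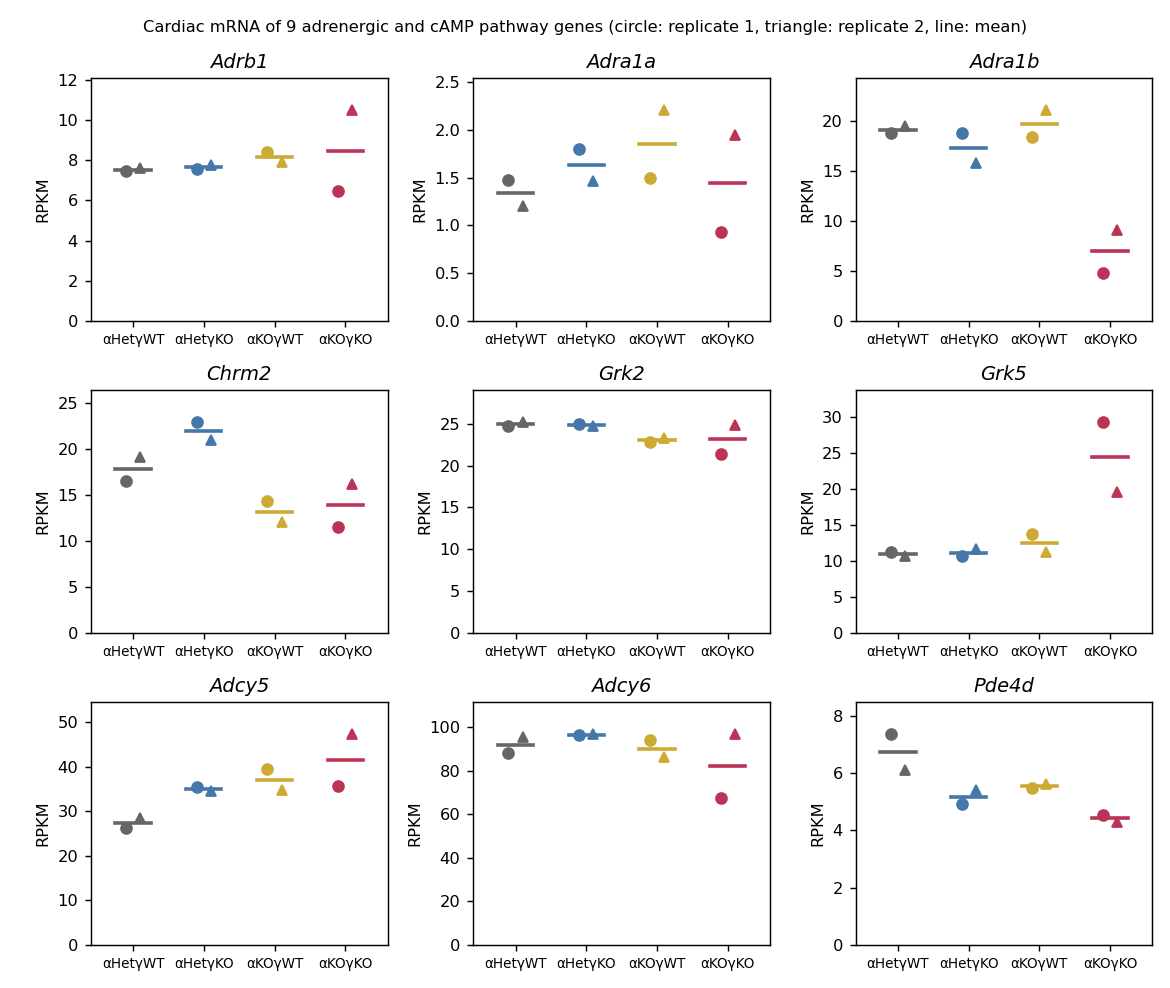
Level of each of the 9 members (y axis, RPKM, starting at 0) in the 8 libraries, grouped by genotype on the x axis; circles are replicate 1, triangles replicate 2 and lines the mean of 2 libraries. Both αKOγKO libraries lie below the other 6 for Adra1b (4.78 and 9.13 RPKM) and Pde4d (4.54 and 4.30) and above them for Grk5 (29.3 and 19.6).

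RPKM divides reads by gene length and by the library's reads, so it can be set side by side between genes. In αHetγWT hearts Adcy6 had the highest level of the 9 members, 91.8 ± 5.25 RPKM (SD, n = 2 libraries, as for all RPKM means here). Adcy5 at 27.4 ± 1.63, Grk2 at 24.9 ± 0.387, Adra1b at 19.1 ± 0.469 and Chrm2 at 17.8 ± 1.86 were in the middle of the range. Grk5 (11.0 ± 0.37), Adrb1 (7.53 ± 0.089) and Pde4d (6.74 ± 0.874) were lower, and Adra1a was lowest at 1.34 ± 0.198. Of the neighbours in this order, Adra1b and Chrm2 had overlapping libraries and the other pairs of neighbours did not overlap.

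Adrb1 encodes the beta1 receptor, the main beta-adrenergic receptor of the myocyte. Its level in RPKM was 7.47 and 7.59 for αHetγWT, 7.54 and 7.78 for αHetγKO, 8.41 and 7.91 for αKOγWT, and 6.46 and 10.5 for αKOγKO (replicates 1 and 2 throughout). The αKOγKO libraries were the lowest and the highest of all 8, so that the groups overlapped and their mean of 8.50 ± 2.88 hid a split. Relative to αHetγWT the αKOγKO log2 fold change was 0.05 ± 0.18 (SE, 95% interval -0.37 to 0.47, edgeR adjusted p = 0.862). It was -0.34 without αKOγKO replicate 2 and 0.35 without replicate 1, and each of these passed the test (adjusted p = 0.0292 and 0.0224). The direction for Adrb1 therefore rested on which library of the pair was used.

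Adra1b encodes the alpha1B receptor, which with the alpha1A receptor makes up most of the alpha1 receptor pool of the rodent heart. Its reads were 1670 and 1810 for αHetγWT, 1618 and 1617 for αHetγKO, 1756 and 1975 for αKOγWT, and 536 and 1021 for αKOγKO. In RPKM these corresponded to 18.8 and 19.5, 18.8 and 15.8, 18.4 and 21.1, and 4.78 and 9.13. The 6 libraries of the other genotypes lay between 15.8 and 21.1 RPKM, and both αKOγKO libraries were below all of them. Against αHetγWT the log2 fold change was -1.59 ± 0.24 (SE, edgeR adjusted p = 0.00104), and it was -2.12 without αKOγKO replicate 2 and -1.20 without replicate 1. In αHetγKO the difference from αHetγWT was -0.16 ± 0.24 (adjusted p = 0.995) and in αKOγWT 0.05 ± 0.24 (adjusted p = 0.95), the latter -0.07 without αKOγWT replicate 2.

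Adra1a encodes the alpha1A receptor and was the least abundant member. Its reads were 179 and 152 for αHetγWT, 210 and 204 for αHetγKO, 195 and 280 for αKOγWT, and 142 and 296 for αKOγKO. The lowest and the highest of these 8 counts were again the αKOγKO libraries, although per length and depth the highest level was αKOγWT replicate 2 (2.21 RPKM). In αKOγKO its log2 fold change was -0.03 ± 0.33 (SE, 95% interval -0.79 to 0.73, edgeR adjusted p = 0.955), with a sign that changed to 0.02 under upper-quartile scaling and to 0.03 in limma on log2(RPKM + 1). Within the pair, Adra1a made up 6.57% ± 1.05 (SD, n = 2) of the summed RPKM of Adra1a and Adra1b in αHetγWT, 8.61% ± 0.158 for αHetγKO, 8.51% ± 1.34 for αKOγWT and 17.0% ± 0.897 for αKOγKO. The αKOγKO shares, 16.3% and 17.6%, lay above the 5.82% to 9.45% of the other 6 libraries, and no test was made of a share with 2 libraries per group.

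The summed RPKM of the alpha1 receptor genes Adra1a, Adra1b and Adra1d was 22.5 ± 0.334 for αHetγWT, 21.7 ± 2.58 for αHetγKO, 22.7 ± 2.51 for αKOγWT and 8.91 ± 3.95 for αKOγKO. Both αKOγKO libraries, at 6.12 and 11.7, were below the 19.9 to 24.4 of the other 6.

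Chrm2 encodes the M2 muscarinic receptor, the receptor of the vagal signal, which is richest in the atria and the pacemaker. Its RPKM was 16.5 and 19.1 for αHetγWT, 22.9 and 20.9 for αHetγKO, 14.3 and 12 for αKOγWT, and 11.5 and 16.2 for αKOγKO. The αHetγKO libraries were the highest of the 8, and the 4 αKO libraries were all below the 4 αHet libraries, with αKOγKO and αKOγWT overlapping each other. How many of all genes separate in this way was not counted, so this is a description only. The log2 fold change in αKOγKO was -0.49 ± 0.16 over αHetγWT (SE, edgeR adjusted p = 0.0348) and -0.78 ± 0.16 over αHetγKO (adjusted p = 0.00509), and over αKOγWT it was -0.06 ± 0.16 (95% interval -0.42 to 0.31, adjusted p = 0.818; 0.06 with limma). The call over αHetγWT was lost in 7 of 15 alternatives, among them without αHetγWT replicate 1 (adjusted p = 0.0577) or 2 (0.208), without either αHetγKO library (0.0586 and 0.0585) and without αKOγKO replicate 1 (0.137). In αKOγWT the difference of -0.44 ± 0.16 did not pass (adjusted p = 0.267). Chrm2 and the noncoding RNA 9330158H04Rik share at least 133 exonic bases on opposite strands, the largest overlap of a pair of exons. The counting is not stated to use strand, so their reads cannot be told apart there. Of the 7 atrial markers in αKOγKO over αHetγWT, Nppa, Myl4 and Bmp10 rose, Nr2f2 fell and 3 did not pass, and the part of atrial tissue in the Chrm2 level was not tested.

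Grk5 encodes the G protein-coupled receptor kinase that is held at the membrane and also enters the nucleus of myocytes. Its reads were 1040 and 1038 for αHetγWT, 958 and 1243 for αHetγKO, 1378 and 1092 for αKOγWT, and 3426 and 2284 for αKOγKO. In RPKM the other 6 libraries ran from 10.7 to 13.8 and the αKOγKO libraries were at 29.3 and 19.6, above all of them and with replicate 1 the higher. Its log2 fold change over αHetγWT was 1.04 ± 0.18 (SE, edgeR adjusted p = 0.00204), 1.30 without αKOγKO replicate 2 and 0.70 without replicate 1. In αHetγKO the value was 0.01 ± 0.18 (adjusted p = 0.999; -0.04 without αHetγKO replicate 2) and in αKOγWT 0.19 ± 0.18 (adjusted p = 0.679).

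Grk2 encodes the cytosolic receptor kinase that is drawn to the membrane by free G protein beta-gamma subunits. Its level in CPM after TMM scaling, which corrects for differences in library makeup, was 83.6 and 86.5 for αHetγWT, 85.4 and 82.7 for αHetγKO, 77.3 and 80.6 for αKOγWT, and 67.7 and 77.0 for αKOγKO. On this scale both αKOγKO libraries were below the other 6, where 50.6% of all tested genes had both beyond the other 6 (25.3% lower), and in RPKM, which has no such scaling, they overlapped them (21.4 and 24.9 against 22.8 to 25.2). Its log2 fold change was -0.23 ± 0.08 (SE, edgeR adjusted p = 0.043) and this call was lost in 12 of 15 alternatives, for example under upper-quartile scaling (-0.19, adjusted p = 0.0882), with the DESeq2 Wald test (adjusted p = 0.0693) and in limma on the log2(RPKM + 1) scale (-0.11, adjusted p = 0.306). Across both kinases, Grk5 made up 31.3% and 29.8% of the summed RPKM of Grk2 and Grk5 for αHetγWT and 57.8% and 44.0% in αKOγKO, where the other 6 libraries ran from 29.8% to 37.7%.

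The sum of the 4 kinase genes Grk2, Grk3, Grk5 and Grk6 was 58.3 ± 0.987 RPKM in αHetγWT, 63.4 ± 1.04 for αHetγKO, 64.3 ± 0.72 for αKOγWT and 88.7 ± 1.81 for αKOγKO. The largest part of that change came from Grk3, the close relative of Grk2, which had 7.93 and 8.31 RPKM in αHetγWT, 11.4 and 12.3 for αHetγKO, 13.8 and 14.9 for αKOγWT and 25.3 and 31.3 for αKOγKO. The Grk3 libraries did not overlap between any of the genotypes, and the share of all genes for which this holds was not counted. Its log2 fold change was 1.67 ± 0.10 for αKOγKO (SE, edgeR adjusted p = 5.83e-06) and 0.83 ± 0.10 for αKOγWT (adjusted p = 0.00905).

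**Figure D2:**
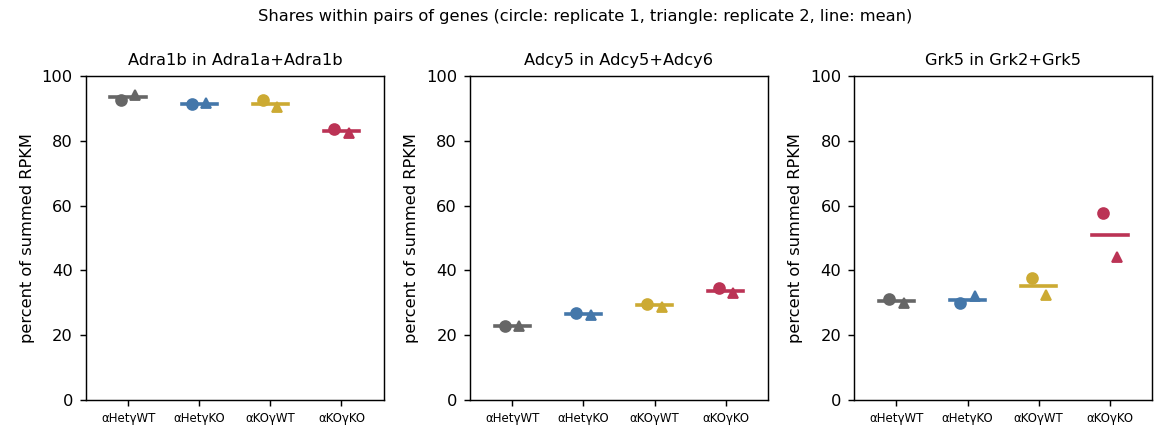
Share of 1 gene in the summed RPKM of its pair (y axis, percent, 0 to 100) in each of the 8 libraries by genotype; circles are replicate 1, triangles replicate 2 and lines the mean of 2 libraries. Adcy5 in its pair went from 23% in αHetγWT to 33.7% in αKOγKO, Grk5 in its pair from 30.5% to 50.9%, and Adra1b in its pair from 93.4% to 83.0%.

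Adcy5 and Adcy6 encode the main adenylyl cyclases of the cardiac myocyte. Adcy5 had 26.2 and 28.5 RPKM in αHetγWT, 35.5 and 34.7 for αHetγKO, 39.5 and 34.8 for αKOγWT, and 35.7 and 47.4 for αKOγKO. The αHetγWT libraries were below all 6 libraries of the other genotypes, and the αKOγWT range overlapped both of its neighbours. For how many of all genes the αHetγWT libraries lie below all others was not counted. The log2 fold change over αHetγWT was 0.47 ± 0.12 for αKOγKO (SE, edgeR adjusted p = 0.0128, lost without αHetγWT replicate 1 at 0.10), 0.34 ± 0.12 for αHetγKO (adjusted p = 0.991) and 0.44 ± 0.12 for αKOγWT (adjusted p = 0.155). Neither of the latter passed in the main test, although both had an unadjusted p below 0.05 (0.02 and 0.0056), and αKOγWT passed in 4 of 15 alternatives. Over αKOγWT the αKOγKO value was 0.03 ± 0.12 (95% interval -0.24 to 0.30), and it was -0.18 without αKOγKO replicate 2.

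Adcy6 had 88.1 and 95.5 RPKM in αHetγWT, 96.2 and 96.7 for αHetγKO, 94.0 and 86.1 for αKOγWT, and 67.6 and 96.8 for αKOγKO. In RPKM, αKOγKO replicate 1 was below the other 7 libraries and replicate 2 was the highest of the 8. In TMM-scaled CPM, the scale of the test, replicate 1 was again the lowest at 387 and replicate 2, at 543, lay within the 538 to 595 of the other 6 libraries. The log2 fold change was -0.29 ± 0.14 (SE, 95% interval -0.60 to 0.03, edgeR adjusted p = 0.129), and it passed at -0.56 without αKOγKO replicate 2 (adjusted p = 0.000477). Although both cyclases were split between the αKOγKO replicates, their ratio was not: Adcy5 was 34.6% and 32.9% of the summed RPKM of the pair there, 23% and 23% in αHetγWT, 27.0% and 26.4% in αHetγKO, and 29.6% and 28.8% in αKOγWT. The 4 genotypes did not overlap in this share. The share was not tested, and how often pairs of genes separate the genotypes like this was not counted. The sum of the pair was 119 ± 6.88 RPKM in αHetγWT and 124 ± 28.9 for αKOγKO. Adcy6 shares at least 495 exonic bases, the largest overlap of a pair of exons, with the antisense gene Gm29331. Reads of that gene cannot be told apart from those of Adcy6 there without strand.

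Pde4d encodes a cAMP-specific phosphodiesterase that sits with beta receptors and with the calcium release channel of the sarcoplasmic reticulum. Its RPKM was 7.36 and 6.12 for αHetγWT, 4.90 and 5.42 for αHetγKO, 5.49 and 5.62 for αKOγWT, and 4.54 and 4.30 for αKOγKO. The order of mean RPKM was αHetγWT, αKOγWT, αHetγKO and αKOγKO from highest to lowest, and neighbouring genotypes did not overlap. The share of all genes with such a separation was not counted, so this order is a description only. The log2 fold change over αHetγWT was -0.73 ± 0.10 for αKOγKO (SE, edgeR adjusted p = 0.000615), -0.40 ± 0.10 for αHetγKO (adjusted p = 0.75) and -0.27 ± 0.10 for αKOγWT (adjusted p = 0.274). The αHetγKO and αKOγWT values had unadjusted p of 0.00394 and 0.0259. The αKOγKO replicates differed by -0.11 on the log2 scale, the least of the 9 members.

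In αHetγKO over αHetγWT 0 of the 9 members passed in edgeR, where 0.00663% of all tested genes did (1 gene, higher). Pde4d and Adcy5 had an unadjusted p below 0.05, and the DESeq2 Wald test and limma called 0 members each. A fit of these 4 libraries alone called Adcy5, where 0.722% of all genes passed. In αKOγWT over αHetγWT 0 members passed in edgeR against 1.23% of all tested genes (0.743% higher, 0.491% lower), with 3 at an unadjusted p below 0.05 (Adcy5, Chrm2 and Pde4d). The DESeq2 Wald test called 1 of them, Adcy5, where 2.81% of all genes passed, and limma 0. Over αKOγWT, αKOγKO hearts had 3 members past the threshold, where 34.8% of all genes passed (16.6% higher, 18.2% lower), namely Adra1b (log2 fold change -1.64 ± 0.24, SE, edgeR adjusted p = 0.00112), Grk5 (0.84 ± 0.18, adjusted p = 0.00711) and Pde4d (-0.46 ± 0.10, adjusted p = 0.00869). Without αKOγWT replicate 2, Grk5 (adjusted p = 0.0527) and Pde4d (0.0503) were lost from these, and Pde4d was lost with limma as well (-0.27, adjusted p = 0.0768). Without αKOγKO replicate 2 the number of members was 7, where 37.8% of all genes passed.

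Over αHetγKO, 4 members passed against 38.3% of all genes (18.7% higher, 19.6% lower), namely Adra1b (-1.43 ± 0.24, SE, edgeR adjusted p = 0.00206), Grk5 (1.02 ± 0.18, adjusted p = 0.0025), Chrm2 as given above and Pde4d (-0.33 ± 0.10, adjusted p = 0.0313). The Pde4d call was lost without either αHetγKO library (adjusted p = 0.0752 and 0.183), without αKOγKO replicate 2 (0.074) and with limma (0.204). The number of members without αKOγKO replicate 2 was again 7, against 40.1% of all genes. These comparisons share libraries: αHetγWT is the control of 3 of them and αKOγKO stands in 3, so their values are set side by side and are not independent of each other.

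**Figure D3:**
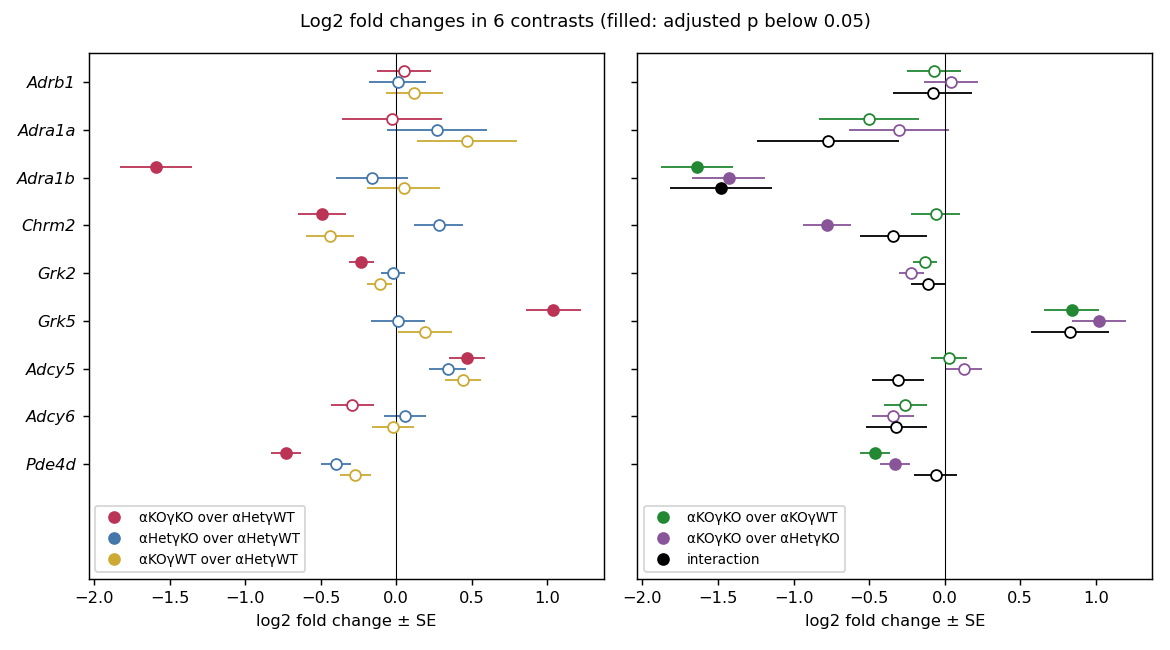
Log2 fold change of each member (x axis, points with bars of ± 1 SE from the edgeR fit) in 5 comparisons of genotypes and the interaction, with filled points for adjusted p below 0.05. In the left panel only αKOγKO over αHetγWT has filled points, 6 of them, and in the right panel Adra1b is filled in all 3 contrasts, at -1.64, -1.43 and -1.48.

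Whether ERRγ loss had a different effect in αKO than in αHet hearts was tested as an interaction in the same fit. Of the 9 members, 1 passed, Adra1b, where 17.5% of all genes did (6.77% higher, 10.7% lower). For Adra1b the log2 fold change with ERRγ loss was -0.16 ± 0.24 in αHet hearts and -1.64 ± 0.24 in αKO hearts, a difference of -1.48 ± 0.34 (SE, edgeR adjusted p = 0.0186). This call was lost without αHetγWT replicate 1, αHetγWT replicate 2, αHetγKO replicate 1 or αKOγWT replicate 2, at adjusted p values of up to 0.0888. Grk5 came next with 0.83 ± 0.26 (adjusted p = 0.058), and it passed in 6 of 14 alternatives, among them the DESeq2 Wald test. With αKOγKO replicate 2 left out, 7 members passed, where the share of all genes passing was 25.1%. For Pde4d the interaction was -0.06 ± 0.14 (95% interval -0.39 to 0.27), with a sign that changed to 0.05 with limma.

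The αKOγKO replicates themselves differed by a median absolute log2 value of 0.19 over all tested genes, against 0.11 to 0.14 in the other genotypes. On the TMM-scaled CPM scale, replicate 2 exceeded replicate 1 by 1.02 for Adra1a, 0.90 for Adra1b, 0.67 for Adrb1, 0.49 for Adcy6, 0.46 for Chrm2 and 0.37 for Adcy5 (log2). Grk5 went the other way, by -0.61. So all 4 receptor genes, both cyclase genes and Grk2 were higher in the library that also held the high Fos and Fosb reads, and Grk5 and Pde4d were lower there. A link with Fos or Fosb was not tested. Adra1b and Grk5 for αKOγKO replicate 2 lay nearer to the other genotypes than in replicate 1, while still outside their range.

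Over the 8 libraries, the tested gene with the profile most like that of Adra1b was Kcnj11, a pore subunit of the ATP-sensitive potassium channel (Pearson r = 0.996 of log2 TMM-scaled CPM, 11940 genes compared), followed by Bloc1s1 (0.995) and Maf1 (0.993). For Grk5 these were Cthrc1 (0.996), Qpct (0.992) and Itgb1, an integrin subunit (0.991), and for Adcy6 Acaa1a (0.996), Hdac11 (0.983) and Cep63 (0.978). For Chrm2 they were Gja3 (0.949), the overlapping transcript 9330158H04Rik (0.943) and Flt3l (0.942), and for Pde4d Kat6a (0.976), Fbxl12os (0.97) and Adk (0.968). Grk2 was most like Tmod4 (0.994), Adcy5 most like Zfp362 (0.964), Adrb1 most like Zfp945 (0.968) and Adra1a most like 1500015A07Rik (0.964). Among the members themselves, Adra1b and Grk5 had r = -0.96 and Adcy6 and Grk2 had r = 0.88. All of these points share the same 8 libraries, and where the 2 αKOγKO libraries stand apart they set the value.

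The pathway was read from 15 lists, of 172 genes in all, which include the 9 members, as do the counts given per list. Unless another fit is named, list counts are for αKOγKO over αHetγWT, where 20.7% of all tested genes were higher and 21.5% lower. A list near these shares moved no more often than genes at large. Of the genes that are not members 150 were tested, and in αKOγKO over αHetγWT 31 were higher and 47 lower, 52.0% against the 42.2% of all genes, with a median log2 fold change of -0.12 (0.01 over all genes). In αKOγWT over αHetγWT 2 of the 150 passed, 1.33% against the 1.23% of all genes. Both were higher: Grk3, given above, and the pacemaker channel gene Hcn2 (0.45 ± 0.08, SE, edgeR adjusted p = 0.0458). In the interaction 13 were higher and 20 lower, 22% against the 17.5% of all genes. These lists were chosen with earlier results of these data known, so their shares beside those of all genes are a description only.

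Of the 8 tested adrenergic receptor genes 3 fell in αKOγKO and 0 rose (median log2 fold change -0.74), where 42.2% of all genes passed (20.7% higher, 21.5% lower). Besides Adra1b, the alpha1D receptor gene Adra1d fell from 1.96 and 2.05 RPKM in αHetγWT to 0.409 and 0.626 (-2.08 ± 0.24, SE, edgeR adjusted p = 0.000194), and its αKOγWT libraries at 0.999 and 1.10 lay between. Of 6 muscarinic and adenosine receptor genes 4 fell and 0 rose (median -0.69), among them the adenosine receptor genes Adora1 (-1.03 ± 0.15, adjusted p = 0.000765), which couples to the inhibitory G protein like Chrm2, and Adora2a (-0.69 ± 0.11, adjusted p = 0.00118), which couples to the stimulatory one.

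Among 23 trimeric G protein subunits 6 rose and 3 fell (median 0.19), where 42.2% of all genes passed. The beta subunit gene Gnb3 was at 1.18 and 1.01 RPKM in αHetγWT and 4.48 and 6.82 for αKOγKO (2.24 ± 0.24, SE, edgeR adjusted p = 0.000155) and Gnb5, the beta subunit that partners a subfamily of RGS proteins, at 20 and 19.2 against 9.50 and 7.83 (-1.30 ± 0.11, adjusted p = 4.37e-05). The gamma subunit gene Gng2, named after its values were seen, had 5.63 and 5.59 RPKM in αHetγWT and 11.2 and 20.7 for αKOγKO (1.38 ± 0.26, adjusted p = 0.00286). Gnas, which encodes the stimulatory alpha subunit and was picked out after its values were seen, had 322 and 308 RPKM in αHetγWT and 758 and 518 for αKOγKO (0.90 ± 0.16, adjusted p = 0.00218). Of 16 RGS proteins, which speed the shut-off of G proteins, 3 rose and 4 fell (median -0.01). Rgs11 (2.34 ± 0.22) and Rgs7 (-1.28 ± 0.16), both of the subfamily that binds Gnb5, moved in opposite directions.

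Of 7 receptor kinases and arrestins 3 rose and 1 fell (median 0.08), where 42.2% of all genes passed. The third to rise, after Grk3 and Grk5, was Arrb1, which encodes beta-arrestin 1 (0.49 ± 0.09, SE, edgeR adjusted p = 0.00203). Of 9 adenylyl cyclases 3 rose and 2 fell (median 0.05). Adcy7 had 5.26 and 5.24 RPKM in αHetγWT and 17.9 and 9.53 for αKOγKO (1.26 ± 0.25, adjusted p = 0.00392), with the larger value in replicate 1, as for Grk5. Adcy1 was at 0.71 ± 0.17, which did not pass when αHetγWT replicate 1 (adjusted p = 0.0693) or 2 (0.0557) was left out, and Adcy4 (-0.69 ± 0.09) and Adcy9 (-0.65 ± 0.14) fell.

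Of 15 cAMP phosphodiesterases 2 rose and 6 fell (median -0.36), where 20.7% of all genes were higher and 21.5% lower. The falls included 3 of the 4 genes of the Pde4 family. Pde4a went from 20.7 and 20.2 RPKM in αHetγWT to 6.49 and 9.01 for αKOγKO (-1.52 ± 0.13, SE, edgeR adjusted p = 4.25e-05), and Pde4c from 5.38 and 7.43 to 1.61 and 1.66 (-2.09 ± 0.20, adjusted p = 6.59e-05). Pde4b, at 19.2 and 16.7 against 16.9 and 21.7, did not pass (-0.02 ± 0.14, 0.03 under upper-quartile scaling and 0.09 with limma). The summed Pde4 level was 51.5 ± 1.58 RPKM in αHetγWT, 44.2 ± 0.98 for αHetγKO, 47.0 ± 0.0936 for αKOγWT and 33.1 ± 4.98 for αKOγKO, while Pde4d kept 13.1% ± 1.30 of it in αHetγWT and 13.5% ± 2.56 for αKOγKO. Pde2a, which is activated by cGMP, fell (-0.83 ± 0.08, adjusted p = 8.85e-05), as did Pde8a (-0.58 ± 0.16), and Pde1a (0.64 ± 0.18) and Pde7a (0.34 ± 0.11) rose. These 3 calls were lost in several alternatives each, with adjusted p without αHetγWT replicate 1 of 0.146 for Pde8a, 0.143 for Pde1a and 0.207 for Pde7a. Without αKOγKO replicate 1, 7 genes of this list passed and all were lower.

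**Figure D4:**
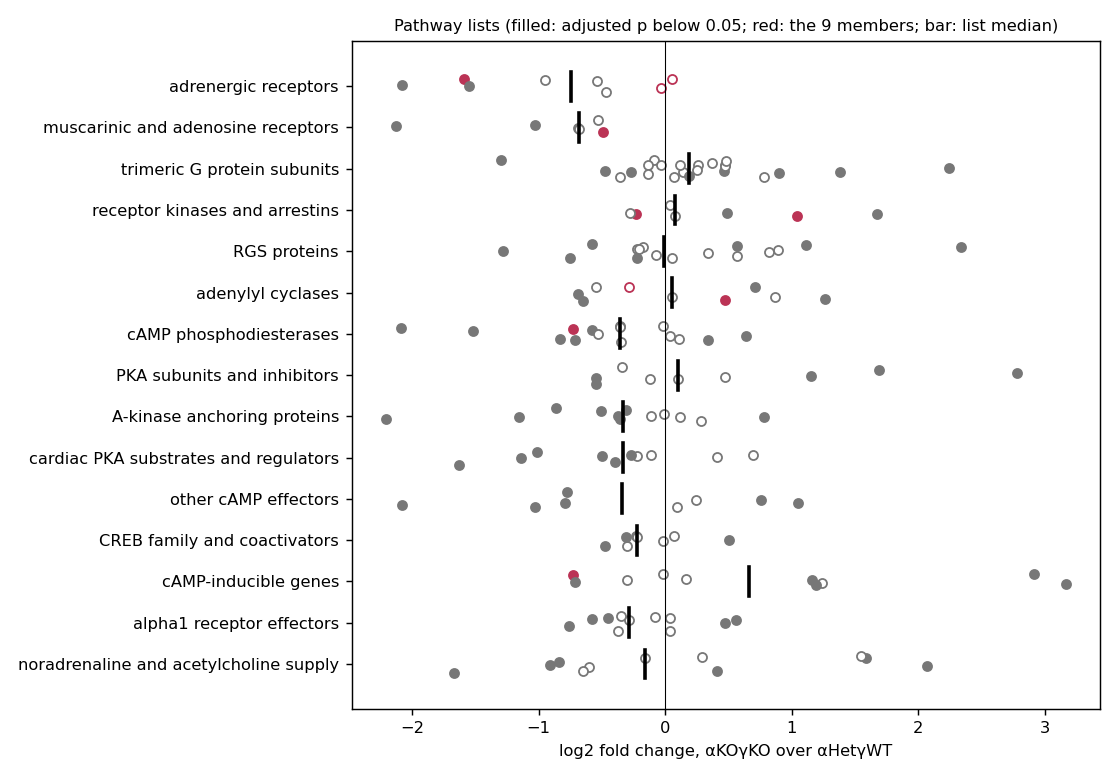
Log2 fold change in αKOγKO over αHetγWT (x axis) of each tested gene of 15 pathway lists (rows), with filled points for adjusted p below 0.05, the members in red and a bar at the list median. The adrenergic receptor list has 3 filled points, all lower, and the list of PKA substrates 6, all lower, while the G protein list has 6 higher and 3 lower. Of all tested genes 20.7% were higher and 21.5% lower.

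Downstream of cAMP, 3 of 9 genes of PKA subunits and inhibitors rose and 2 fell (median 0.10), where 42.2% of all genes passed. Prkar1a, a regulatory subunit that holds the kinase inactive until cAMP binds, went from 154 and 156 RPKM in αHetγWT to 567 and 520 for αKOγKO (1.69 ± 0.09, SE, edgeR adjusted p = 2.94e-06), and the other 4 libraries were at 162 to 207. The catalytic subunit gene Prkaca fell from 151 and 146 to 103 and 119 (-0.55 ± 0.08, adjusted p = 0.000983), and the inhibitor gene Pkia fell too (-0.55 ± 0.13, adjusted p = 0.00921, lost at 0.0807 without αHetγWT replicate 1). Of 12 A-kinase anchoring proteins, which tether PKA near its targets, 1 rose and 7 fell (median -0.33), with Akap7 at -1.16 ± 0.08 and Pde4dip at -0.86 ± 0.12 among the falls and Akap6 (0.78 ± 0.11) the rise.

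Of 10 cardiac PKA substrates and their regulators 6 fell and 0 rose (median -0.34), where 21.5% of all genes were lower and 20.7% higher. The troponin I gene Tnni3 (-1.63 ± 0.08, SE), the phospholamban gene Pln (-1.14 ± 0.22) and the calcium release channel gene Ryr2 (-1.01 ± 0.08) were among them, with edgeR adjusted p of 2.54e-06, 0.00368 and 2.49e-05, and Pln like the receptor genes was higher in αKOγKO replicate 2 (1540 RPKM) than in replicate 1 (827). Tnni3 and Pln are also on the list of cardiomyocyte markers, whose sum was 34300 to 37400 RPKM in the other 6 libraries and 26800 and 31300 for αKOγKO. Of 8 other cAMP effectors 2 rose and 4 fell (median -0.35). Hcn2 had 23.6 and 23 RPKM in αHetγWT, 31.3 and 28.2 for αHetγKO, 33.4 and 30.1 for αKOγWT, and 5.77 and 6.24 for αKOγKO (-2.08 ± 0.09, adjusted p = 1.44e-06), so its libraries lay above αHetγWT with either receptor gene lost alone, in αKOγWT past the test, and far below it with both lost. Rapgef3, a cAMP-activated exchange factor also called Epac1, fell (-0.78 ± 0.10) and Popdc3, a cAMP-binding Popeye protein, rose (1.05 ± 0.13).

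Of 8 CREB family and coactivator genes 1 rose and 3 fell (median -0.23), 2 in all without αKOγKO replicate 1, and of the named ones Creb1 was at -0.48 ± 0.09 and Crtc1 at 0.50 ± 0.15. Crtc1 no longer passed when αKOγKO replicate 2 (0.24, adjusted p = 0.141) or αHetγWT replicate 1 (0.185) was left out, or with only the libraries compared (0.0856). Of 10 genes that cAMP induces 4 rose and 2 fell (median 0.66), Pde4d being one of the falls, where 42.2% of all genes passed. Nr4a3, an orphan nuclear receptor, had 1.86 and 2.52 RPKM in αHetγWT, 1.91 and 6.55 for αKOγWT and 14.0 and 22 for αKOγKO (2.91 ± 0.52, SE, edgeR adjusted p = 0.00224). Ppargc1a, the coactivator PGC-1α of mitochondrial genes, had 35.1 and 44.9 RPKM in αHetγWT and 103 and 96.2 for αKOγKO (1.19 ± 0.12, adjusted p = 8.98e-05), with the other 4 libraries at 41.1 to 43.9. The high Fos reads of αKOγKO replicate 2 stand beside this list, and their part in it was not tested. Leaving out replicate 2 gave 3 rises and 2 falls.

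Of 11 effectors of alpha1 receptors 2 rose and 3 fell (median -0.29), where 42.2% of all genes passed. The inositol trisphosphate receptor genes Itpr1 (-0.45 ± 0.08, SE) and Itpr3 (-0.58 ± 0.09) were lower and Prkca, a protein kinase C, was higher (0.56 ± 0.11). Of 11 genes for the supply and removal of noradrenaline and acetylcholine 3 rose and 3 fell (median -0.16). Of the 2 monoamine oxidases, Maoa went from 2.40 and 2.02 RPKM in αHetγWT to 8.02 and 6.43 for αKOγKO (1.59 ± 0.18, edgeR adjusted p = 0.000182), and Maob from 13.4 and 12.8 to 6.02 and 9.24 (-0.91 ± 0.16, adjusted p = 0.00221). Without αKOγKO replicate 2, 9 genes of this list passed, 3 higher and 6 lower.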

How the data were processed

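RNA was extracted from flash-frozen hearts with RNAzol and made into libraries with the Illumina TruSeq kit, per the labels. The study's methods give 3 hearts per pool and the design text 2 to 3. For each library the authors deposited a table of genes with a whole-number read count (uniquely assigned reads), an RPKM value, a gene length score and a coverage score (build mm10). Which aligner and counter were used, and whether strand was used, is not given in the sources used here. The deposited RPKM equals the count divided by deposited length and total. A gene absent from a table was given a count of 0. The deposited length differed between tables for 83 genes, none of them a member. No column holding the authors' own comparisons is in the tables. Totals of 28.2 M to 36.8 M reads put 142 reads or more behind every member value.

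Counts were fitted with edgeR 4.0.16 (R 4.3.3; TMM factors, filterByExpr with minimum count 10 and total 15, quasi-likelihood F test, 1 mean per genotype over all 8 libraries, 4 residual degrees of freedom, 15076 genes, Benjamini-Hochberg over all of them, threshold 0.05). The replicates of a genotype differed beyond sampling noise (chi-square per degree of freedom 6.41 to 61.5), so each was counted as a separate library. TMM factors were 0.9657 to 0.9969 in 6 libraries and 1.053 and 1.077 in αKOγKO. The SE is the fold change divided by the root of F. In simulated counts with 100 genes changed 1.5-fold and 100 changed 2-fold, the αKOγKO over αHetγWT comparison recovered 41 and 80, with 1 false call. The simulation changed only these genes out of 15076 and gave all genotypes the same spread. In the data 42.2% of genes passed in this comparison, so the recovered shares do not carry over to it. Changes of 1.5-fold can still be missed at 2 libraries per genotype.

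The members and the lists were chosen with earlier results of these data known. Named are the 9 members, Esrra and Esrrg, in each list up to 3 genes of lowest adjusted p in αKOγKO over αHetγWT with a mean of at least 1 RPKM, the receptors, cyclases, kinases and cAMP phosphodiesterases above that level, and the 3 genes most like each member. Other genes named were chosen after their values were seen (Gnas, Gng2, Fos, Fosb). Akap2 has no entry in the tables used. Values of some single list genes are not reported here. Alternatives were DESeq2 1.42.0 size factors and Wald test, upper-quartile factors, no filter, limma 3.58.1 on log2(RPKM + 1), only the libraries compared, a replicate block, shares from reads, and leaving out each of 8 libraries; counts of list genes without each αKOγKO library were added after seeing the data. The coverage score was not used. Gene positions and antisense neighbours are from GENCODE and RefSeq annotation of GRCm38.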

Additional observations from a re-analysis of the deposited data

Results flagged for a closer look

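The effect of ERRγ loss on Adra1b differed between αKO and αHet hearts by -1.48 ± 0.34 on the log2 scale (SE, n = 2 libraries per genotype, edgeR adjusted p = 0.0186), by a test of that difference itself. Both αKOγKO libraries were below both αKOγWT libraries, and the αHetγKO libraries overlapped the αHetγWT libraries. Over the alternatives that left out a library the difference ran from -2.01 to -1.09, with adjusted p from 3.73e-05 to 0.0888. Groups of 2 libraries are too small for a check of single libraries that stand apart.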

How the results depend on the processing

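In αKOγKO over αHetγWT the calls of Adra1b, Grk5 and Pde4d held in all 15 alternatives run, that of Adcy5 in 14, of Chrm2 in 8 and of Grk2 in 3. The number of members called there was 3 to 8 over the fits that leave out a library, 0 to 0 in αHetγKO over αHetγWT, 0 to 1 in αKOγWT over αHetγWT, 1 to 7 in αKOγKO over αKOγWT, 3 to 7 in αKOγKO over αHetγKO and 0 to 7 in the interaction. With only the libraries compared, 1 member was called in αHetγKO over αHetγWT (0.722% of all genes) and 1 in αKOγWT over αHetγWT (2.77%). The DESeq2 Wald test called 1 in the latter (2.81%). In the interaction 2 (Adra1b and Grk5) were called with no filter, the replicate block, the DESeq2 Wald test or limma, where 14.2% to 19.0% of all genes passed. Same-numbered libraries did not deviate together (correlations -0.18 to 0.09 between genotypes), so the numbers gave no sign of a pairing. The study describes the hearts as those of littermates, and whether libraries shared litters was not tested. With the replicate block 6 members were called in αKOγKO over αHetγWT, where 41.7% of all genes passed. Directions that turned were, in αKOγKO over αHetγWT, those of Adra1a (0.02 with upper-quartile factors, 0.03 with limma) and Pde4b (0.03 and 0.09), and with limma in αKOγKO over αKOγWT those of Adrb1 (0.02), Grk2 (0.00) and Chrm2 (0.06) and in the interaction those of Grk2 (0.00) and Pde4d (0.05). Leaving out a library turned the sign of these values, given as their range: in αKOγKO over αHetγWT Adrb1 (-0.34 to 0.35), Adra1a (-0.65 to 0.40), Arrb2 (-0.03 to 0.18), Grk4 (-0.23 to 0.25), Adcy3 (-0.25 to 0.29), Pde1c (-0.98 to 0.09), Pde3b (-0.87 to 0.42), Pde1b (-0.05 to 0.14) and Pde4b (-0.20 to 0.14); in αHetγKO over αHetγWT Adrb1 (-0.01 to 0.03), Adcy6 (-0.01 to 0.13), Grk2 (-0.04 to 0.01) and Grk5 (-0.04 to 0.06); in αKOγWT over αHetγWT Adra1b (-0.07 to 0.16) and Adcy6 (-0.09 to 0.04); in αKOγKO over αKOγWT Adrb1 (-0.46 to 0.23), Adcy5 (-0.18 to 0.21) and Chrm2 (-0.31 to 0.16); in αKOγKO over αHetγKO Adrb1 (-0.35 to 0.34), Adra1a (-0.91 to 0.14) and Adcy5 (-0.08 to 0.31); and in the interaction Adrb1 (-0.47 to 0.22) and Pde4d (-0.19 to 0.06). Leaving out a library leaves its genotype with 1 library, assumed to vary like the others, and the cause of these turns was not tested. Shares computed from reads without length moved to 21.7% for Adra1a in its pair in αKOγKO, and for Pde4d in the Pde4 sum to 19.6% in αHetγWT and 20.1% in αKOγKO. With 2 libraries per genotype, small changes in a member can be missed, and a member that did not pass is not shown to be unchanged.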
